A study of Mus musculus with 6 samples.

Results

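The lysyl oxidase family comprises 5 genes in the mouse, *Lox*, *Loxl1*, *Loxl2*, *Loxl3* and *Loxl4*, and its expression was examined in cardiac fibroblasts after myocardial infarction (MI). Members were chosen by gene name from the 34745 genes listed, all 5 were found, and all 5 were among the 14084 genes that passed a filter on low counts and were tested. RNA-seq was performed on cardiac fibroblasts from the left ventricle of male mice, 7 days after the left anterior descending artery of the heart was tied off at an age of 8 to 10 weeks. The 3 KO libraries came from KDM5B knockout mice, in which CRISPR/Cas9 removed the part of *Kdm5b* that encodes the demethylase domain and shifted the reading frame, and the 3 WT libraries came from wild-type littermates. Every animal had MI, so no uninjured heart entered the comparison, and the mutation was made in the mouse line and not in fibroblasts alone. The comparison addresses how the genes for collagen and elastin cross-linking differ between the 2 labels.

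Lysyl oxidases are secreted, copper-dependent enzymes. They oxidise the amino group of lysine side chains in collagen and elastin, and the aldehydes formed then join neighbouring chains, which makes the fibres insoluble and stiff. In the injured heart these enzymes are known for hardening the collagen scar that fibroblasts lay down. *Lox* and *Loxl1* are made with a propeptide that is cut off outside the cell, whereas *Loxl2*, *Loxl3* and *Loxl4* carry scavenger receptor cysteine-rich domains in its place. KDM5B removes methyl groups from lysine 4 of histone H3.

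Library totals ranged from 12025403 to 15329427 counts. *Kdm5b* itself had FPKM values of 5.13, 5.53 and 5.47 in the KO libraries and 5.51, 6.52 and 6.27 in the WT libraries, so the labels overlapped. Its log2 fold change, KO against WT, was -0.22 (SE 0.07, adjusted p = 0.0574, edgeR), so the groups are called by their labels throughout. The count covers the whole gene, and reads from the deleted part alone were not examined here. Fibroblast markers were found in every library, with a summed FPKM of 481 to 539 in KO and 640 to 670 in WT, and 10 of 12 were lower in KO with none higher and a list median log2 fold change of -0.41. Endothelial markers had a summed FPKM of 264 to 370 in KO against 71.0 to 71.8 in WT, and 12 of 14 were higher in KO. Cardiomyocyte markers were lower in 6 of 9 cases and macrophage markers in 6 of 10, with list medians of -0.41 and -0.38. These counts stand beside 12.5% of all tested genes called lower in KO and 17.7% called higher. Among macrophage markers, 1 was higher in KO, *Cd68*, a lysosomal glycoprotein, with FPKM values of 49.6, 38.3 and 41.1 in KO and 15.7, 16.8 and 15.7 in WT (log2 fold change 1.38, adjusted p = 3.9e-05, edgeR). None of these markers was at 0 in all 6 libraries. In bulk RNA, fewer cells of a type and less RNA per cell cannot be told apart.

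Of the 5 members, 4 differed between the labels. *Lox*, *Loxl1* and *Loxl2*, the members with the highest levels, were lower in the KO libraries by 23.9% to 30.1%, and *Loxl4* was 2.81-fold higher. *Loxl3* did not pass the test. These 4 calls, 3 lower and 1 higher, stand beside 30.2% of all tested genes called in either direction, 12.5% called lower and 17.7% called higher (edgeR quasi-likelihood test, Benjamini-Hochberg adjusted p under 0.05). The FPKM values of the 2 labels did not overlap for the same 4 members, which was so for 46.4% of tested genes. FPKM (fragments per kilobase of transcript, scaled to the mapped total) divides a count by gene length, so it was used for levels between genes.

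**Figure D1:**
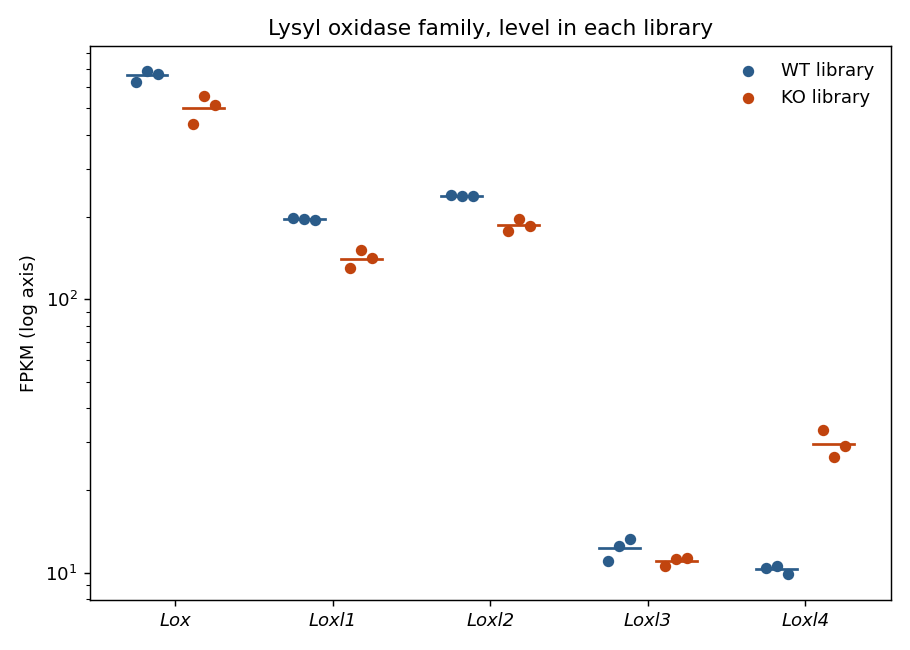
Level of each lysyl oxidase gene in each library, as FPKM on a log axis, with 1 point per library (blue WT, orange KO) and a line at the mean of 3. KO points lie below WT points for *Lox*, *Loxl1* and *Loxl2*, overlap them for *Loxl3*, and lie above them for *Loxl4* (26.4 to 33.2 against 9.83 to 10.6).

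*Lox*, the founding member, cross-links fibrillar collagen and elastin (gene ENSMUSG00000024529, mm10, chromosome 18, 52516069 to 52529867, minus strand). Its FPKM was 440, 554 and 515 in the KO libraries and 625, 685 and 671 in the WT libraries, from 39433 to 76012 counts per library. Every KO library was below every WT library, and KO replicate 1 was the lowest of the 6. The means were 503 ± 57.9 (SD, n = 3) in KO and 660 ± 31.4 (SD, n = 3) in WT. The log2 fold change was -0.43 (SE 0.08, 95% interval -0.62 to -0.23, edgeR adjusted p = 0.00650). An exact two-sided permutation test over the libraries gave p = 0.1, which is the smallest value that 3 against 3 allows. *Lox* was among the most highly expressed genes under both labels, at rank 49 of the 14084 tested genes in WT and rank 61 in KO. Of all tested genes, 9.33% had a log2 fold change at least as low.

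*Loxl1* is the member most closely tied to elastin, which it cross-links during elastic fibre renewal (ENSMUSG00000032334, chromosome 9, 58287723 to 58313212, minus strand). Its FPKM was 131, 151 and 141 in KO and 198, 197 and 195 in WT. The labels were separate, and the WT libraries lay close together, with a coefficient of variation of 0.782% against 7.31% in KO. *Loxl1* had the lowest log2 fold change in the family, -0.52 (SE 0.06, 95% interval -0.65 to -0.38, edgeR adjusted p = 4.6e-04). Its mean fell from 197 ± 1.54 to 141 ± 10.3 FPKM (SD, n = 3 each), and its rank moved from 162 in WT to 234 in KO.

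*Loxl2*, an enzyme of basement membrane collagen IV and of fibrillar collagen, was the second most abundant member (ENSMUSG00000034205, chromosome 14, 69609068 to 69695834, plus strand). Its FPKM was 177, 197 and 186 in KO and 241, 239 and 239 in WT. Again no KO library reached the WT libraries, which differed from each other by little. The means were 187 ± 10.0 in KO and 240 ± 0.764 in WT (SD, n = 3 each). The log2 fold change was -0.39 (SE 0.05, 95% interval -0.51 to -0.28, edgeR adjusted p = 7.4e-04), and 11.3% of tested genes had one at least as low.

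The log2 fold changes of the tested fibroblast markers ranged from -0.48 to -0.27. Those of *Lox* and *Loxl2* lay within this range, and that of *Loxl1* lay below it. When libraries were scaled so that this list did not change, an alternative that moved the median log2 fold change of all genes from -0.02 to 0.38, the log2 fold changes became -0.037 for *Lox* (adjusted p = 0.684), -0.12 for *Loxl1* (adjusted p = 0.0764) and -6.8e-04 for *Loxl2* (adjusted p = 0.992), all with edgeR. None of these 3 then passed the test. In the 14 other alternatives all 3 did, in the same direction. Whether a lower share of fibroblast RNA took part in these differences was not tested.

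*Loxl3*, which is needed for collagen cross-linking in the palate, spine and muscle of the embryo, was expressed at a far lower level than *Lox* (ENSMUSG00000000693, chromosome 6, 83034173 to 83052562, plus strand). Its FPKM was 10.5, 11.2 and 11.3 in KO and 11.0, 12.5 and 13.3 in WT. WT replicate 1 lay within the KO values, so the labels overlapped. The log2 fold change was -0.19 (SE 0.08, 95% interval -0.37 to -0.01), and the edgeR p of 0.0434 became 0.109 after adjustment. The exact two-sided permutation test over 3 against 3 libraries gave p = 0.3. Without WT replicate 1 the log2 fold change was -0.26 (edgeR adjusted p = 0.0358), and with fibroblast marker scaling it was 0.21 (adjusted p = 0.0826). In GENCODE M21, 535 of its 4603 exonic bases overlap exons of *Htra2* on the other strand, and because the sources used here do not say whether counting used strand, its count may include reads of *Htra2*, in a number that was not measured.

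*Loxl4*, the remaining member with scavenger receptor domains, went the other way (ENSMUSG00000025185, chromosome 19, 42593982 to 42612813, minus strand). Its FPKM was 33.2, 26.4 and 29.0 in KO and 10.4, 10.6 and 9.83 in WT, from 1876 to 2380 counts in KO and 751 to 843 in WT. The lowest KO library was well above the highest WT library. The means were 29.5 ± 3.45 in KO and 10.3 ± 0.380 in WT (SD, n = 3 each). The fold was 2.81 (95% interval 2.46 to 3.21), or 1.49 on the log2 scale (SE 0.08, edgeR adjusted p = 1.4e-05), and 3.96% of tested genes had a log2 fold change at least as high. Its rank moved from 3924 in WT to 1448 in KO. The exact two-sided permutation test of 3 against 3 libraries gave its smallest value, p = 0.1. Over the 15 alternatives the log2 fold change lay between 1.40 and 1.89, and the adjusted p was at most 2.3e-04.

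Most endothelial markers were higher in KO, as *Loxl4* was. KO replicate 1 had the highest *Loxl4* level, followed by KO replicates 3 and 2. The FPKM of *Pecam1*, an adhesion molecule of the endothelium, took the same order, with 81.5, 57.6 and 71.4 in KO replicates 1, 2 and 3 against 4.68, 4.43 and 3.93 in WT. *Cdh5*, which encodes VE-cadherin, had FPKM values of 117, 77.9 and 91.5 in KO against 17.9, 19.7 and 18.8 in WT. Of the 12 endothelial markers called, 9 took this order of KO libraries, and *Emcn*, *Esam* and *Robo4* did not. Of all 14084 tested genes, 21.9% took the same order. Of the 2488 genes called higher in KO, which include these 12 markers, 48.6% did, so the order was not confined to the markers listed. Of the endothelial list, *Cldn5* (log2 fold change 0.00, adjusted p = 0.993, edgeR) and *Ptprb* (0.08, adjusted p = 0.216) did not pass the test. Some markers of other lists were also higher, *Cd68* and the mural marker *Mcam* by 1.38 each on the log2 scale. The mesothelial marker *Krt19* was higher by 1.53, and the mural marker *Abcc9*, at a mean FPKM of 0.257, by 0.84. More genes of these lists were lower, 6 of 10 macrophage, 3 of 7 mural and 5 of 6 mesothelial markers. The part of endothelial or other RNA in the *Loxl4* difference was not tested.

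**Figure D2:**
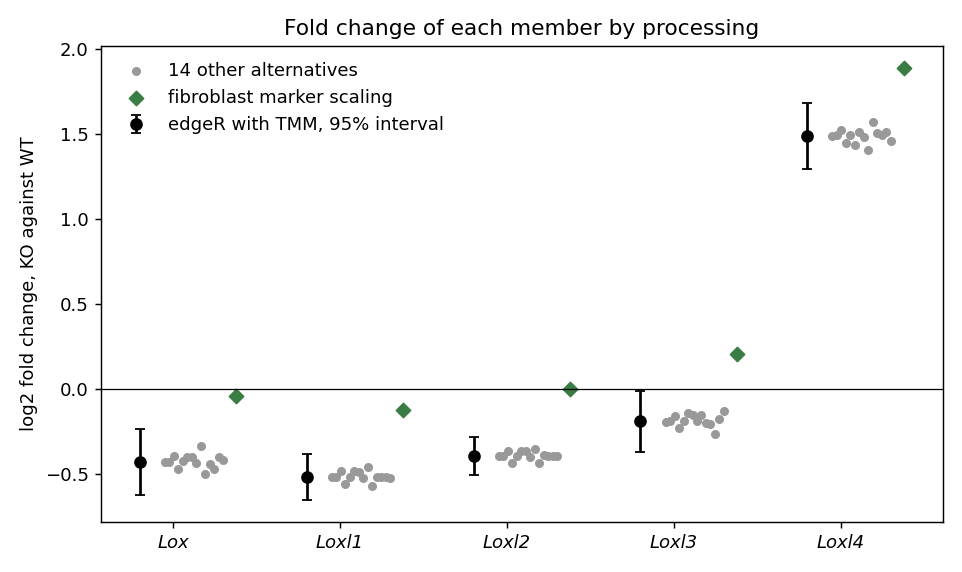
Log2 fold change of each member, KO against WT, from edgeR with TMM (black, 95% interval) and under 15 alternatives (grey points, and a green diamond for fibroblast marker scaling). The 3 members that fell move to between -0.12 and -6.8e-04 under that scaling, *Loxl3* moves to 0.21, and *Loxl4* stays above 1.40 in every alternative.

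The sequences that encode the copper-binding stretch of the catalytic domain are shown for the 3 members with scavenger receptor domains. *Loxl2* and *Loxl4* are nearly identical there, and any link between this likeness and their RNA levels was not tested. Each line gives 12 codons read 5′ to 3′ in the sense of the gene from the GENCODE M21 coding sequence (GRCm38), with the 4 histidine codons in capitals.
Loxl2: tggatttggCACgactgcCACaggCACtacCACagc
Loxl3: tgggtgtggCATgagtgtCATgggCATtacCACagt
Loxl4: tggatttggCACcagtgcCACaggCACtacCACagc
The stretch is spliced from exons 10 and 11 of *Loxl2* (chr14:69682316-69689040, plus strand), exons 10 and 11 of *Loxl3* (chr6:83049995-83050128, plus strand) and exons 11 and 12 of *Loxl4* (chr19:42598804-42599899, minus strand), so that these spans include an intron. *Loxl2* and *Loxl4* share 34 of the 36 bases, and *Loxl3* shares 27 with either. *Lox* and *Loxl1*, not shown, share 35. Over the whole annotated transcripts, none of the 9 pairs other than *Lox* with *Loxl1* shared a sequence of 31 bases, and that pair shared 2 such sequences, which may overlap.

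The promoter of *Loxl4* is shown as that of the single member that was higher in KO. It was also the only member matched in the promoter sequences at hand. These are the 250 bases before its RefSeq start (GRCm38.p6, chr19:42612807-42613056, minus strand), written 5′ to 3′ in the sense of the gene, with each GC box, the letters GGGCGG, in capitals.
Loxl4: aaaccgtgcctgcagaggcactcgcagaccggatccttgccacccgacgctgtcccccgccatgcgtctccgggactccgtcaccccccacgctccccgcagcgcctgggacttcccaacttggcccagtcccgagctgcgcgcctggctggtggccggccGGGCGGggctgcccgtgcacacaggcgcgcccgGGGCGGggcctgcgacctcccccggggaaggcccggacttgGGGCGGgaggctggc
The 3 GC boxes begin 89, 56 and 15 bases before the start. A GC box on either strand was found in 32.7% of 32851 promoters of the same length. The window is 76% G or C and holds 27 CpG dinucleotides, against medians of 52.4% and 6 over all promoters. The letters ACGTG (hypoxia response core), TGANTCA (AP-1), TGACGTCA (cAMP response element), TATAAA and CCAAT, searched on both strands, are not in this window, and 16.6%, 6.75%, 1.55%, 12.4% and 33.85% of promoters hold them. These matches describe the sequence only.

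The make-up of the family also differed between the labels. The summed FPKM of the 5 members was 791, 940 and 883 in KO and 1085, 1145 and 1129 in WT, with means of 871 ± 74.8 and 1120 ± 30.8 (SD, n = 3 each). *Lox* made up more than any other member under both labels, at 57.6% ± 1.79 of the sum in KO and 58.9% ± 1.21 in WT. *Loxl2* kept a like share, 21.5% ± 0.797 against 21.4% ± 0.664, a difference below the spread of the libraries. *Loxl1* made up 16.2% ± 0.256 in KO and 17.6% ± 0.578 in WT. *Loxl4* made up 4.20%, 2.81% and 3.28% in the KO libraries and 0.956%, 0.923% and 0.871% in the WT libraries. *Loxl3* stood at 1.27% ± 0.0724 in KO and 1.09% ± 0.0815 in WT. In the order of levels, *Lox*, *Loxl2* and *Loxl1* came first under both labels with no overlap between neighbours, whereas *Loxl3* was above *Loxl4* in each WT library and below it in each KO library. In WT replicate 1 the 2 were close, at 11.0 and 10.4 FPKM, and any reads of *Htra2* within the *Loxl3* count could alter the order in WT.

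**Figure D3:**
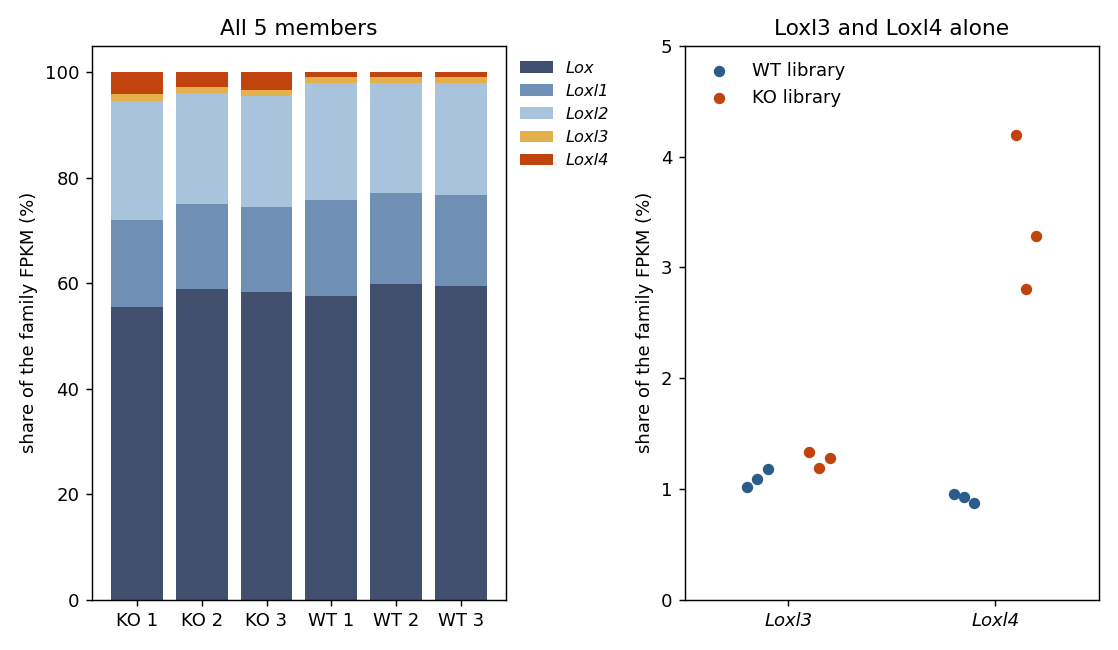
Share of the summed family FPKM, in percent, taken by each member in each library (left, stacked bars) and by *Loxl3* and *Loxl4* alone (right, 1 point per library). The *Loxl4* share is 2.81% to 4.20% in KO and 0.871% to 0.956% in WT, while *Lox* makes up the largest share in all 6 libraries.

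Ratios of 2 members within a library do not depend on how libraries are scaled to each other, and all 10 pairs were compared. For *Loxl2* over *Loxl4*, the log2 ratio was 2.42, 2.90 and 2.68 in KO and 4.54, 4.50 and 4.61 in WT, a difference of -1.88. The other 3 pairs with *Loxl4* differed by -1.67 to -2.00. No KO library overlapped a WT library in any of these 4 pairs. For *Loxl1* over *Loxl2* the log2 ratio was -0.44, -0.38 and -0.39 in KO and -0.28, -0.28 and -0.29 in WT, a difference of -0.12. The 3 log2 ratios to *Loxl3* differed by -0.25 for *Lox*, -0.33 for *Loxl1* and -0.21 for *Loxl2*, again without overlap, and the last was -0.13 without WT replicate 1. These 8 pairs had an exact two-sided permutation p of 0.1, the smallest possible with 3 against 3 libraries, and 0.125 after Benjamini-Hochberg adjustment over 10 pairs, so the design could not reach the threshold. *Lox* over *Loxl1* (difference 0.09, exact p = 0.3) and *Lox* over *Loxl2* (difference -0.04, exact p = 0.6) overlapped between the labels, and the first of these differences was 0.043 without WT replicate 1.

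Genes that act before, beside and after the lysyl oxidases were taken from 7 lists of 58 genes, of which 54 were tested. Of these, 32 were lower in KO, 4 were higher and 18 did not pass the test, beside the 12.5% of all tested genes called lower and 17.7% called higher. Under fibroblast marker scaling, edgeR called 13 higher and 0 lower, and 0 were lower at an unadjusted p under 0.05. Of the 36 genes called, 29 stayed past the threshold whichever library was left out.

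Among the fibrillar collagen chains, the chief substrates of *Lox*, 8 of 11 were lower and 3 did not pass, with a list median log2 fold change of -0.40. *Col1a1* was at 1819 ± 152 FPKM in KO and 2418 ± 149 in WT (log2 fold change -0.44, adjusted p = 0.00284), and *Col3a1* at 487 ± 30.5 and 638 ± 8.41 (-0.42, adjusted p = 8.1e-04). *Col5a1*, which sets fibril diameter, had a log2 fold change of -0.42 (adjusted p = 0.00186). *Col27a1* was barely expressed (0.867 and 1.25 FPKM), and its call of -0.56 was lost in 4 of 6 fits that left out a library. Of 6 elastic fibre genes, 4 were lower and the list median was -0.40. Elastin, encoded by *Eln*, stood at 133 ± 7.36 FPKM in KO and 173 ± 2.35 in WT (-0.42, adjusted p = 5.8e-04). The elastin-associated glycoproteins *Emilin1* and *Mfap4* had log2 fold changes of -0.45 each, and the microfibril gene *Fbn1* one of -0.38. Adjusted p-values here and for the lists that follow are from edgeR, and SD is over n = 3 libraries per label.

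Of 6 collagen IV chains, the basement membrane substrate of *Loxl2*, 5 were lower, with a list median of -0.31. *Col4a1* was at 677 ± 33.1 FPKM in KO and 813 ± 8.00 in WT (-0.30, adjusted p = 0.00242). The log2 fold changes of *Col4a5*, *Col4a6* and *Col4a3* were -0.31, -0.40 and -0.40, and that of *Col4a3* was lost in 3 of 6 fits that left out a library.

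The genes that release the *Lox* propeptide or bring the enzymes to their fibres were lower in 10 of 11 cases, with a list median of -0.43. *Bmp1*, the protease that cuts the *Lox* and procollagen propeptides, had 104, 120 and 108 FPKM in KO and 147, 145 and 152 in WT (-0.45, adjusted p = 0.00123). The labels were separate, as they were for *Pcolce*, which enhances procollagen cleavage by *Bmp1* (25.8, 28.4 and 27.1 in KO, 37.1, 35.8 and 36.0 in WT, -0.45). *Fbln5*, which tethers *Loxl1* to elastin, and *Ltbp4*, which guides *Fbln5* to microfibrils, each had a log2 fold change of -0.51. *Postn*, a matricellular protein that aids *Lox* activation, had one of -0.44, and fibronectin, encoded by *Fn1*, one of -0.35. *Efemp2*, which brings *Lox* to elastin, overlapped between the labels, and its call of -0.36 (adjusted p = 0.0459) was lost in 4 of 6 fits that left out a library.

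Of 10 copper supply genes, 3 were higher, 1 was lower and 6 did not pass the test, beside 17.7% of all tested genes called higher. The list median log2 fold change was 0.16, and 0.083 without WT replicate 1. *Atp7a*, the pump that loads copper into secreted enzymes in the Golgi, had FPKM values of 6.19, 5.22 and 5.80 in KO and 3.97, 3.97 and 4.44 in WT. The labels were separate, and the log2 fold change was 0.44 (SE 0.08, adjusted p = 0.00461). *Steap2*, a metalloreductase, was higher as well (0.53, adjusted p = 0.00369), whereas its relative *Steap4* was lower (-0.45, adjusted p = 0.00295). The call for *Steap3* (0.31, adjusted p = 0.0331) was lost in 5 of 6 fits that left out a library. *Slc31a1*, the copper importer of the cell surface, had a log2 fold change of -0.02 (95% interval -0.14 to 0.11).

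Among lysine hydroxylation and other cross-linking genes, 4 of 8 tested were lower and 4 did not pass. *Plod2*, the lysyl hydroxylase of collagen telopeptides, stood at 64.1 ± 1.88 FPKM in KO and 75.6 ± 2.18 in WT (-0.27, adjusted p = 0.00271). *Colgalt1*, a collagen galactosyltransferase, and *Pxdn*, the peroxidase that cross-links collagen IV, had log2 fold changes of -0.31 and -0.29. The call for *Plod3* (-0.24) was lost in 4 of 6 fits that left out a library. Of the other copper amine oxidases, *Aoc2* had 2.74, 1.43 and 2.11 FPKM in KO and 0.940, 1.13 and 1.29 in WT (0.86, adjusted p = 0.0271), and its call was likewise lost in 4 of 6 such fits. *Aoc3* was near 0 in every library (0.0541 to 0.236 FPKM) and did not pass the test.

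**Figure D4:**
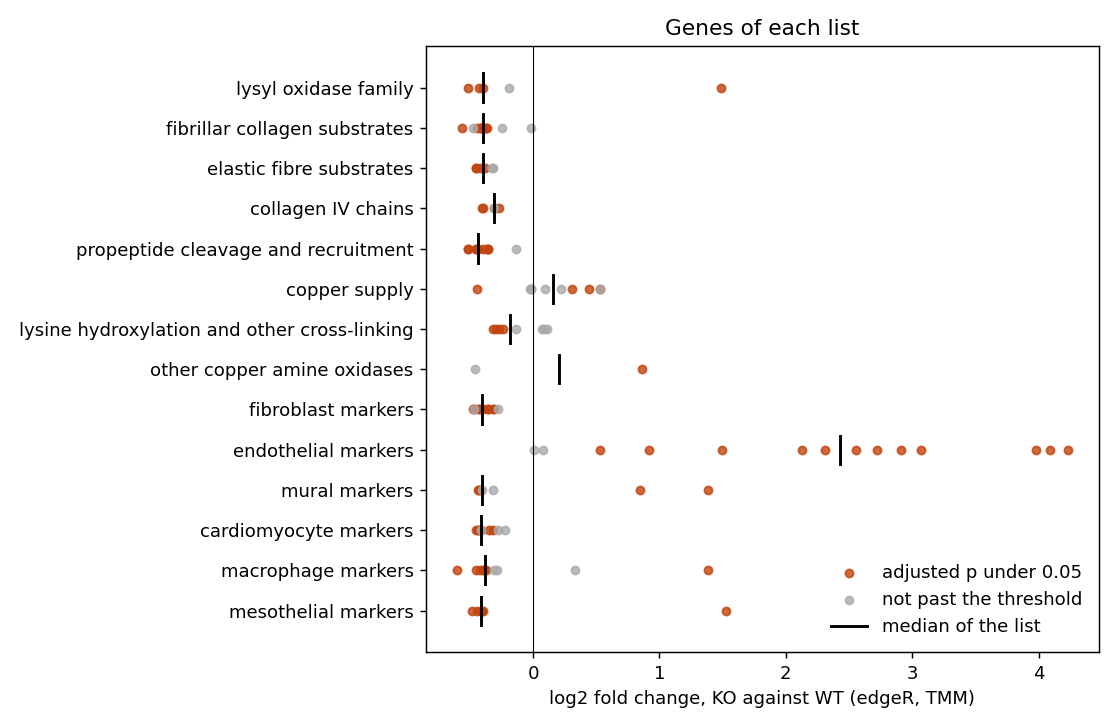
Log2 fold change, KO against WT, of each tested gene in the lists of lysyl oxidase members, their substrates and partners, and cell type markers (orange, adjusted p under 0.05; grey, not past the threshold; bar, list median). The medians of the fibrillar collagen and elastic fibre lists and of the fibroblast, mural, cardiomyocyte and mesothelial marker lists lie between -0.41 and -0.40. The macrophage marker median is -0.38, that of copper supply is 0.16 (0.083 without WT replicate 1), and *Loxl4* stands at 1.49.

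For each member, the 3 genes with the most similar pattern over the 6 libraries were found, by the root mean square difference of log2 CPM (counts scaled to the library total) centred on each gene's mean, among the 11289 tested genes whose mean FPKM was 1 or more. For *Lox* these were *Ntn4*, *Ncam1* and *Emp2*, at differences of 0.02 to 0.03, with log2 fold changes of -0.43, -0.46 and -0.39. For *Loxl1* they were *Rpl29*, *Pmepa1* and *Creb3l1* (-0.53, -0.50 and -0.51), and for *Loxl2* *Zfp651*, *Cxcl12* and *Meg3* (-0.39, -0.38 and -0.41). These were as close as 0.01 to 0.02. *Loxl3* had *Tsnax*, *Ppan* and *Tnk2* nearest, of which none passed the test. *Loxl4* had *Stap2*, *Asah2* and *Cav2* nearest, at 0.04 to 0.06, where the median candidate stood at 0.76. *Stap2* encodes a signalling adaptor, *Asah2* the neutral ceramidase and *Cav2* a caveolin, and their log2 fold changes were 1.54, 1.47 and 1.48. *Cav2* had FPKM values of 20.1, 16.2 and 17.5 in KO and 5.87, 6.60 and 6.35 in WT. Neighbours were picked on values that hold the difference between the labels, so like fold changes and calls follow from the choice. The likeness is a description of 6 libraries that fall under 2 labels.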

How the data were processed

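RNA-seq libraries (strand-specific, 150-base paired-end reads) were mapped by the authors to mm10 with HISAT2, and the submitters' processing notes also name GRCm38.p4 and edgeR. The authors deposited a raw count and an FPKM value for each gene and library. The counting tool, annotation and strand setting are not given in the sources used here. The gene length that count and FPKM imply was equal in every library, within a share of 8.8e-06.

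The quasi-likelihood test of edgeR 4.0.16 (R 4.3.3) was run on the counts after filterByExpr and TMM scaling, with Benjamini-Hochberg adjustment over 14084 genes. It used all 6 libraries and no covariate. A count of 0 allows up to 3 counts, or 0.249 CPM in the smallest library, and this covers counting error only. Nothing in the labels says that the 3 libraries per label came from separate animals, so p-values measure the spread between these libraries. The fit was first tested on simulated data.

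The members and lists were chosen with earlier results of these data known. The lists were fibrillar collagen, elastic fibre, collagen IV, propeptide cleavage and recruitment, copper supply, lysine hydroxylation and other cross-linking, other copper amine oxidases, and markers of fibroblasts, endothelial cells, mural cells, cardiomyocytes, macrophages, mesothelium and Schwann cells. Named genes were the members, *Kdm5b*, up to 4 called genes per pathway list with the largest absolute log2 fold change and a mean FPKM of at least 1, 14 partner genes listed in any case, and the 3 nearest patterns of each member. *Cd68*, *Mcam*, *Abcc9*, *Krt19*, *Emcn*, *Esam*, *Robo4*, *Cldn5*, *Ptprb*, *Pecam1* and *Cdh5* were named after their values were seen.

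The alternatives tried were every gene with a count, a CPM averaging at least 1, library size, upper quartile or fibroblast marker scaling, DESeq2 1.42.0, limma 3.58.1 on log2(FPKM + 1) or log2(FPKM + 0.1), a replicate block, and leaving out each library. Promoters came from RefSeq and coding sequences from GENCODE M21.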

Additional observations from a re-analysis of the deposited data

How the results depend on the processing

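The rise of *Loxl4* held in all 15 alternatives, and the falls of *Lox*, *Loxl1* and *Loxl2* in 14. Fibroblast marker scaling, which by construction holds the fibroblast list at no change, gave log2 fold changes of -0.037 for *Lox*, -0.12 for *Loxl1*, -6.8e-04 for *Loxl2*, 0.21 for *Loxl3* and 0.18 for *Kdm5b*, 8284 genes higher and 45 lower over all genes, and 13 pathway genes higher and 0 lower. *Kdm5b* passed the threshold with the upper quartile (-0.26). Leaving out 1 library gave 1144 to 1636 genes lower over all genes (lowest without KO replicate 3), 2 to 4 pathway genes higher (2 without KO replicates 1 or 3 or WT replicates 1 or 2), -0.26 to -0.13 for *Loxl3* and -0.29 to -0.16 for *Kdm5b* (each lowest, and past the threshold, without WT replicate 1), and -0.079 to 0.019 for the *Lox* over *Loxl2* log2 ratio (0.019 without KO replicate 1). The deviations of same-numbered libraries were hardly correlated (0.01, 0.01 and 0.03), though each KO library correlated most with the WT library of its number. With 3 libraries per label, such small values do not settle whether the numbers pair them. With the replicate number as a block, *Kdm5b* was at -0.21 (edgeR adjusted p = 0.0270), the 4 members called stayed past the threshold and *Loxl3* did not pass (adjusted p = 0.0703). The causes of these shifts were not tested. Of the other marker lists, mural genes were lower in 3 and higher in 2 of 7 cases, mesothelial genes lower in 5 and higher in 1 of 6, and the 1 Schwann gene tested did not pass. With 3 libraries per label no permutation p can fall below 0.1, and *Loxl3*, at 701 to 1048 counts, has the fewest counts in KO libraries.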
